A study of Mus musculus with 13 samples.

Results

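High-grade gliomas of the Nestin-creERT2 mouse model were compared with control brain of the same model across every gene the arrays measured. The groups were taken from the genotype labels: 3 arrays carried the label of a Nestin-creERT2 driven tumor and 3 that of a Nestin-creERT2 driven control, out of 13 arrays in all. In the tumor mice a Cre recombinase under Nestin sequences removed tumor suppressor genes, which the labels do not name, and tumors were taken once neurological symptoms appeared. Control tissue came from the matching position in control mice, and the labels give neither that position nor whether control mice carried the Cre, the target alleles or a tamoxifen treatment. The sources used here give no strain, sex or age. The other 7 arrays held 4 tumors and 3 controls of the NG2-creERTM model, in which NG2 sequences drive Cre. Since the labels number independent tumors and biological replicates of controls, 1 array was taken to stand for 1 sample.

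Nestin is a filament protein made by stem and progenitor cells of the nervous system, and CreERT2 is a Cre recombinase that enters the nucleus only when tamoxifen binds it, so deletion starts in nestin-expressing cells and is inherited by their progeny. A glioma displaces brain tissue made of neurons, astrocytes, oligodendrocytes, microglia and vessels, and itself holds dividing glioma cells with recruited immune cells and vessels. In RNA from whole tissue, fewer cells of a type and less RNA per cell cannot be told apart.

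Each array carried 45281 probes, of which 23904 were detected on at least 3 of the 13 arrays (detection p below 0.05) and 18876 of those had 1 gene symbol. The brightest probe of each gene was used, which gave 11927 genes. Values are log2 of the background-corrected, quantile-normalized signal, which ran from about 4.55 to 14.74 as a mean over the 6 arrays. Differences are tumor minus control in log2 units, 1 unit being a doubling, given ± their standard error from limma with 3 arrays a group. A gene was called where the Benjamini-Hochberg adjusted p of that fit over all 11927 genes was below 0.05, and "rose" and "fell" are used only of called genes. A gene above background on no array of a group has only a limit there, and its change is written "at least N-fold".

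Several arrays stood apart in ways the labels do not explain. Tumor 3 alone carried high choroid plexus genes, tumor 1 alone high hemoglobin genes relative to the other tumors, and tumor 2 the highest signal of the chemokine gene Cxcl13 and of Trp63, with values given further on. The X-linked transcript Xist, made in female cells, was near background in tumors 1 and 2 and controls 1 and 3 (4.64 to 4.69) and high in tumor 3 (10.53) and control 2 (9.98), so both groups mixed the sexes. Median raw signal was higher in tumors (185.1 ± 8.95, SD, n = 3) than in controls (130.4 ± 10.3, SD, n = 3), and an exact two-sided permutation test gave p = 0.1, the smallest that 3 against 3 arrays allow. The share of probes detected was 45.37% and 45.23% (exact two-sided permutation p = 0.9). Tumors 1 and 2 shared a slide with controls 1 and 2, and tumor 3 shared another with control 3. With 3 arrays a group, precision is limited throughout.

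Of 11927 genes, 2905 were higher in tumors (24.4%) and 2615 were lower (21.9%), and 6407 were not called. At least a doubling was reached by 2065 of the higher genes and a halving by 1963 of the lower genes, 4028 in all, and without background correction 2519 genes passed with that size. Differences of 4 log2 units or more were reached by 93 rises and 86 falls, and of 5 units or more by 30 rises and 12 falls. The 3 tumor arrays lay wholly above or wholly below the 3 control arrays for 7029 genes (58.9%), 5422 of which were called. The middle of the distribution lay near 0, with a median difference of 0.06 and quartiles of -0.64 and 0.76.

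**Figure D1:**
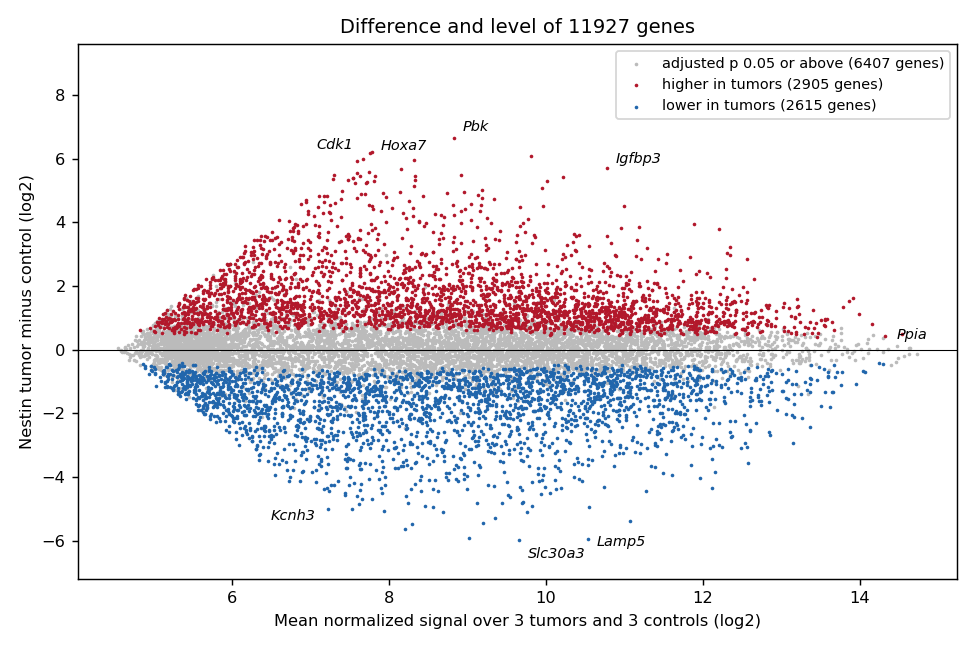
Difference between Nestin tumors and controls (vertical axis, log2) against the mean normalized signal over the 6 arrays (horizontal axis, log2) for 11927 genes, 1 point each. Red points mark the 2905 genes called higher, blue points the 2615 called lower and grey points the 6407 not called; the cloud narrows at the dim end, near background.

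Calls were fewer among dim genes, at 33.2% in the dimmest of 4 equal groups by mean signal against 50.2%, 49.5% and 52.2% in the next 3. The presence of signal changed for many genes: 356 were above background on all 3 tumors and on 0 controls, and 276 on all 3 controls and on 0 tumors. Tumors varied more among themselves than controls did, with a median SD of 0.304 against 0.223, and the SD was larger in tumors for 63.71% of genes. Across genes, tumor arrays correlated with each other at 0.937 to 0.9603, control arrays at 0.9816 to 0.9832, and tumor with control arrays at 0.7865 to 0.8304. These correlations describe arrays normalized together to 1 distribution. The call counts for the 55 gene lists that follow can be read against the 24.4% and 21.9% over all genes and a median of 0.06.

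Genes with known roles in cell division and DNA replication were among the 20 largest rises. Pbk, a kinase of mitotic cells, measured 12.26, 12.16 and 12.03 in tumors 1 to 3 and 5.56, 5.74 and 5.19 in controls 1 to 3, a rise of 6.65 ± 0.24 (adjusted p = 9.19e-10). Prc1, which bundles the microtubules of the central spindle, measured 12.94, 12.62 and 12.96 in tumors and 6.95, 7.43 and 5.91 in controls, a rise of 6.07 ± 0.31. Cdk1, the kinase that starts mitosis, measured 10.96, 10.85 and 10.75 in tumors and was above background in no control, and rose at least 43.4-fold. For all 3 genes the tumors stood within 0.5 log2 units of each other and far above every control. Pclaf, a partner of the replication clamp, rose at least 37.9-fold, and Uhrf1, which copies DNA methylation marks onto new strands, rose by 5.95 ± 0.31. Ckap2, a spindle protein, rose at least 30.7-fold, Troap, another spindle protein, at least 24.6-fold, Cdca2, a chromosome-bound phosphatase partner, at least 35.1-fold and Spdl1, a kinetochore adaptor of dynein, at least 30.5-fold. Cdca3, a trigger of mitotic entry, rose by 5.48 ± 0.37, Fignl1, an ATPase of recombination repair, at least 28.1-fold, and the replication-linked histone gene H2ac15 by 5.42 ± 0.41. Above background on only some arrays of 1 group were Uhrf1 (1 of 3 controls), and Pbk (2 of 3 controls).

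Promoters of Cdk1, Ckap2 and Cdca3 are shown as examples of division genes whose promoters hold a pair of short motifs. The CHR element (TTTGAA or TTCGAA) and the CCAAT box (CCAAT) are known as paired elements of promoters that are active in late cell cycle. Of the other division genes named above with a single RefSeq promoter, Spdl1 and H2ac15 held both. Pclaf and Troap held a CCAAT box without a CHR element, and Fignl1 a CHR element without a CCAAT box. Each sequence is RefSeq's, on assembly GRCm38.p6, from 250 bases before to 50 after the gene's start, 5′ to 3′ on the gene's strand, with matches to the CHR element and the CCAAT box on either strand in capitals. Cdk1 lies at chr10:69352863-69353162 (minus strand), Ckap2 at chr8:22185770-22186069 (minus strand) and Cdca3 at chr6:124829926-124830225 (plus strand). For the chemokine gene Cxcl10, at chr5:92348840-92349139 (minus strand), the capitals mark a match to the interferon-stimulated response element (GAAANNGAAA) in place of these. The Cdca3 window also held a match to that element and the Cxcl10 window a CCAAT box, both left in lower case.
Cdk1: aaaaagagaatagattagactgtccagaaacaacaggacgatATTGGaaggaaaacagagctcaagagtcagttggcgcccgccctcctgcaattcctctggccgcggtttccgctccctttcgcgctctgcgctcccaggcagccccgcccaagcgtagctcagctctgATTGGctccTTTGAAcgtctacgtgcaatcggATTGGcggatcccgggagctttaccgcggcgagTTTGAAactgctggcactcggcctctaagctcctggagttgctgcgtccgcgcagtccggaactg
Ckap2: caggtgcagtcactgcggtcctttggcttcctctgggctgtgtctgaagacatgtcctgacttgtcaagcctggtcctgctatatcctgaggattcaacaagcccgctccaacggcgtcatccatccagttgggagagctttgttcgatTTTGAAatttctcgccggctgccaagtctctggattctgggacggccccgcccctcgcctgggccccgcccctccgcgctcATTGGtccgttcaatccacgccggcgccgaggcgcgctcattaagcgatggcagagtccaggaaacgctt
Cdca3: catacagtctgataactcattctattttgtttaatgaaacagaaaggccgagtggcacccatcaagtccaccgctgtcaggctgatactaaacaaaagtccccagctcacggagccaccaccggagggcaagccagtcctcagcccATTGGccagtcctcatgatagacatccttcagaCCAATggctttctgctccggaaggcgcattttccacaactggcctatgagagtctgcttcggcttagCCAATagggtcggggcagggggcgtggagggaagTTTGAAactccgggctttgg
Cxcl10: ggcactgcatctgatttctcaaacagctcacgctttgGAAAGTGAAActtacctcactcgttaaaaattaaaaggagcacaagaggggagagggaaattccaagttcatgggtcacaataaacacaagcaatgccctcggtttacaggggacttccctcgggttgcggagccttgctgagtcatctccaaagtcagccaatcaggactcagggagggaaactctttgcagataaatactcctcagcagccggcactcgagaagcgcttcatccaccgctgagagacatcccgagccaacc
The Cdk1 window held 2 CHR elements and 3 CCAAT boxes, all 3 boxes on the opposite strand, and the Ckap2 window 1 of each. In bases from the gene's start, the Ckap2 CHR element lay at -101 to -96, upstream of its CCAAT box at -20 to -16. The Cdca3 CHR element lay after the start, at 30 to 35.

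Among the 100 largest rises, 74 had a single promoter in the RefSeq table, and 40.5% of these held a CHR element, against 13.6% of the 7597 single promoters over all genes tested. Among the 100 largest falls 44 had a single promoter, and 2.3% of these held one. Of the 186 genes of little change, described further on, 117 had a single promoter, and 19.7% of these held one. The CCAAT box stood in 56.8% of the promoters of rises, 36.4% of those of falls and 38.7% of all. Both motifs together stood in 32.4% of the promoters of rises and 5.7% of all. The E2F site (TTTGGCGC or TTTCCCGC), the interferon-stimulated response element, the cAMP response element (TGACGTCA) and the TATA box (TATAAA) were rarer, in 5.4%, 5.4%, 9.5% and 12.2% of the promoters of rises against 3.0%, 2.9%, 3.2% and 8.0% of all. Both strands were searched and no motif of the set holds another. The shares are descriptions of letters in these windows, with no test, since the genes were ranked on the same differences.

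**Figure D2:**
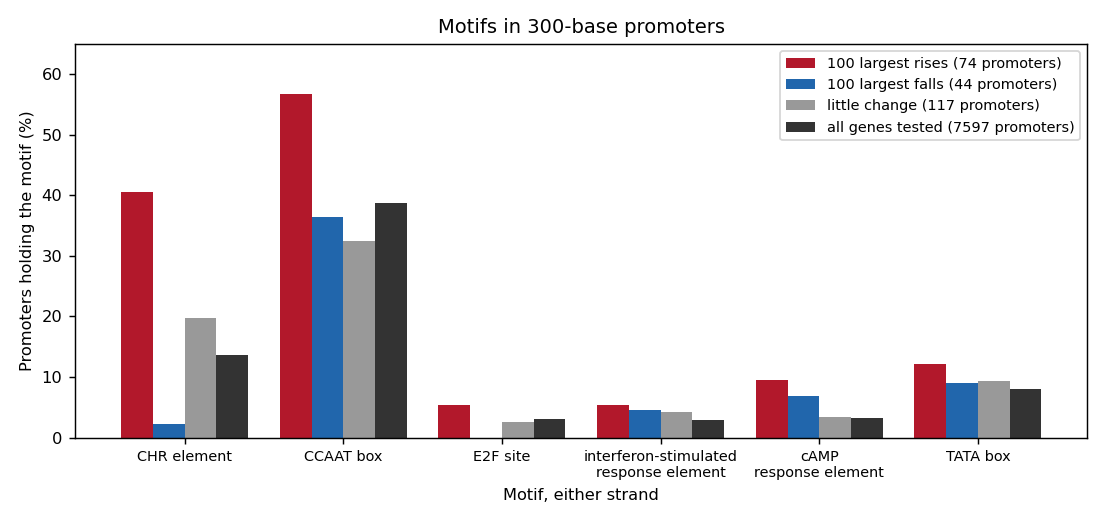
Share of promoters (vertical axis, %) that hold each of 6 motifs on either strand, for the 100 largest rises, the 100 largest falls, the 186 genes of little change and all genes tested, among genes with a single promoter in the RefSeq table. The CHR element stood in 40.5% of the promoters of rises, 2.3% of those of falls, 19.7% of those of genes of little change and 13.6% of all promoters.

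Other large rises were of patterning, secreted and stress genes. The homeobox gene Hoxa7, which patterns the embryonic trunk and hindbrain axis, measured 11.67, 10.40 and 10.56 in tumors 1 to 3 against 4.86, 4.58 and 4.58 in controls 1 to 3, at least 44.1-fold higher. Hoxa5, its neighbour in the Hoxa cluster, was at least 28.4-fold higher, En1, a factor of the midbrain and hindbrain boundary, at least 35.4-fold and Irx2, an Iroquois factor, at least 23.3-fold. All 4 factors were above background in every tumor and in no control. Igfbp3, which binds insulin-like growth factors, measured 13.16, 13.44 and 14.28 in tumors and 7.51, 8.13 and 8.12 in controls, a rise of 5.70 ± 0.41 (adjusted p = 2.12e-07). Lcn2, a secreted iron-siderophore carrier of injured and inflamed tissue, measured 9.74, 12.66 and 10.55 in tumors and 4.76, 6.36 and 4.85 in controls, a rise of 5.66 ± 1.05 (adjusted p = 0.000601). Tumor 2 was the highest for Lcn2 and for Cxcl10, a chemokine that attracts activated T cells, which measured 9.38, 11.44 and 10.77 and rose at least 34.6-fold. Hmox1, which breaks down heme, measured 10.34, 11.27 and 11.58 in tumors and 5.64, 5.15 and 6.01 in controls, a rise of 5.46 ± 0.51. The groups did not overlap for any of these 8 genes, which follows from the choice, since the largest rises were drawn only from genes without overlap. Detection was partial in 1 group for Lcn2 (1 of 3 controls), and Hmox1 (2 of 3 controls).

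**Figure D3:**
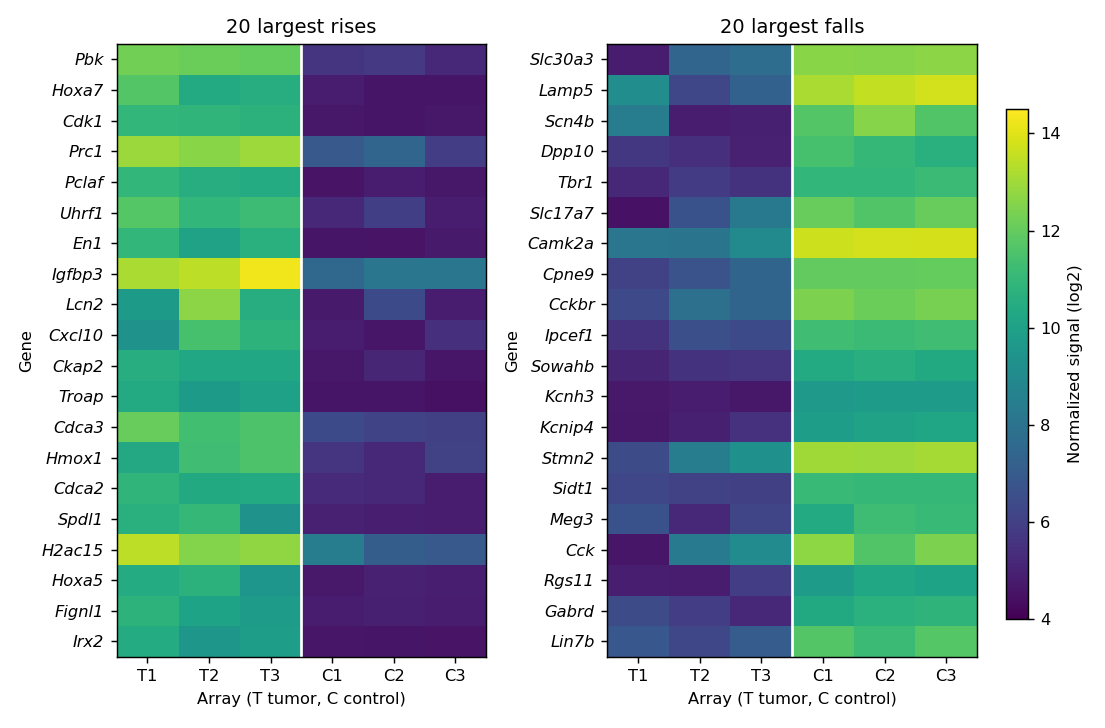
Normalized signal (colour, log2) of the 20 largest rises and 20 largest falls (rows, by size of difference) on the 3 tumor and 3 control arrays (columns T1 to T3 and C1 to C3). Every row is split between the groups because the rows were drawn only from genes whose groups did not overlap. The falls vary more between tumors than the rises, as for Cck, from 4.65 in tumor 1 to 9.07 in tumor 3.

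Genes known from synapses, channels and cortical neurons were among the 20 largest falls. Slc30a3, which loads zinc into synaptic vesicles, measured 4.80, 7.42 and 7.76 in tumors 1 to 3 and 12.65, 12.61 and 12.66 in controls 1 to 3 and fell by 5.98 ± 0.73 (adjusted p = 1.97e-05). Lamp5, a membrane protein of cortical neurons, measured 9.16, 6.22 and 7.28 in tumors and 13.18, 13.55 and 13.79 in controls and fell by 5.95 ± 0.54. Scn4b, a sodium channel subunit, was highest among tumors in tumor 1, at 8.40, 4.84 and 4.94 against 11.68, 12.61 and 11.66 in controls, and fell by 5.93 ± 0.79. For each gene the controls were close together and the tumors spread over more than 2 log2 units. Tbr1, a factor of deep-layer cortical neurons, was more even, at 5.22, 5.86 and 5.56 in tumors and 10.97, 10.96 and 11.17 in controls, and fell by 5.49 ± 0.24. The vesicular glutamate transporter Slc17a7 fell by 5.46 ± 0.71, and Camk2a, the abundant synaptic kinase, fell by 5.38 ± 0.36 while still above background in every tumor (8.13, 8.02 and 8.99). Channel genes among the 20 were Kcnh3, at least 20-fold lower, and the potassium channel partners Dpp10, which fell by 5.64 ± 0.47, and Kcnip4, which fell by 4.995 ± 0.29. Cckbr, a receptor for the peptide cholecystokinin, fell by 5.12 ± 0.55, and its ligand Cck fell by 4.91 ± 0.86. Gabrd, which forms GABA receptors outside synapses, fell by 4.82 ± 0.29, and the G protein brake Rgs11 fell by 4.85 ± 0.29. Stmn2, a tubulin-binding protein of growing axons, fell by 4.96 ± 0.73, and Lin7b, a synaptic scaffold protein, fell by 4.82 ± 0.33. The calcium-binding copine Cpne9 fell by 5.30 ± 0.44, and Ipcef1, a partner of cytohesin exchange factors, fell by 5.09 ± 0.32. Sowahb fell by 5.08 ± 0.25, Sidt1, a transmembrane protein, fell by 4.94 ± 0.47, and the imprinted noncoding RNA Meg3 fell by 4.91 ± 0.35. Not every array of both groups was above background for Kcnip4 and Rgs11 (1 of 3 tumors), and Slc30a3, Tbr1, Slc17a7, Dpp10, Cck, Gabrd, Sowahb and Meg3 (2 of 3 tumors).

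The falls moved with markers of neurons and oligodendrocytes. Of 6 neuron markers measured, 5 fell and Tubb3, near background in both groups, was not called (-0.14 ± 0.28). The summed linear signal of these markers was 4960 to 11500 in tumors and 61600 to 64800 in controls. All 5 oligodendrocyte markers fell, with sums of 4420 to 10500 in tumors and 38700 to 53200 in controls, among them the myelin gene Mog, which fell by 4.15 ± 0.54, and Mbp, which fell by 2.43 ± 0.65. Of 6 astrocyte markers 1 rose and 1 fell. The filament gene Gfap rose by 2.16 ± 0.52 and the enzyme gene Aldh1l1 fell by 2.31 ± 0.33, and the marker sums ran from 28300 to 65200 in tumors and 29500 to 31500 in controls. None of these markers was below background on all arrays of a group. The part that cell makeup plays in the differences of the gene lists was not tested.

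The gene lists below were chosen to cover cell functions beyond cell type markers, and held 1444 genes, of which 1137 were measured and 632 called (55.6%). Over all genes tested 5520 of 11927 were called, 24.4% as higher and 21.9% as lower. The lists were chosen with earlier results of these data known. All 8 measured mitotic kinesins, the motors of the spindle, rose, with a median of 4.02. Kif2c, which removes tubulin at centromeres, measured 10.80, 9.51 and 10.08 in tumors and was above background in no control, and rose at least 26.3-fold. Kif18b rose by 4.57 ± 0.31, Kif22 by 4.49 ± 0.33 and Kif4 by 4.402 ± 0.30. Of the kinesins that carry cargo along axons and dendrites, with 16 measured, 9 fell and 1 rose, with a median of -1.02. Kif5a, the neuronal heavy chain, measured 9.70, 9.47 and 10.67 in tumors and 13.89, 14.05 and 14.03 in controls and fell by 4.04 ± 0.59, and the light chain gene Klc1 fell by 2.88 ± 0.39. Of 5 Klc1 probes, the other 3 that were called lower differed by -3.14 to -2.10, and 1 was called higher (0.63 ± 0.25). Kif5c fell by 2.74 ± 0.38 and Kif21a fell by 2.15 ± 0.53, while Kif1c, a motor found in many tissues, rose by 1.46 ± 0.36. Of the genes just named, those detected on part of a group were Kif18b (1 of 3 controls), and Kif4 (2 of 3 controls).

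All 14 measured histone chaperones and HMG proteins rose, with a median of 1.82. Cenpa, the histone of centromeres, rose by 4.51 ± 0.26, and Chaf1b and Chaf1a, subunits of the assembly factor behind replication forks, rose by 4.50 ± 0.35 and 2.58 ± 0.31. Hmgb2, a DNA-bending protein, measured 11.35, 11.18 and 11.46 in tumors and 6.78, 7.24 and 6.93 in controls, a rise of 4.35 ± 0.32 (adjusted p = 2.38e-07), and the groups lay over 3 log2 units apart. Of 19 genes of the nuclear lamina and pore 14 rose and 0 fell (median 1.14). The lamin gene Lmnb1 measured 10.89, 11.31 and 11.04 in tumors and 7.64, 7.69 and 7.51 in controls and rose by 3.46 ± 0.23, Tmpo, an inner nuclear membrane protein, rose by 3.03 ± 0.28, and the pore genes Nup43 and Nup93 by 2.04 ± 0.33 and 1.62 ± 0.28. Nuclear import and export receptors were mixed, with 5 rises and 1 fall among 19 and a median of 0.066 that changed sign in some settings. The import adaptor Kpna2 rose at least 2.86-fold while its relative Kpna1 fell by 0.80 ± 0.28. Rcc1, which charges Ran with GTP, rose by 1.40 ± 0.29, its partner Ranbp1 by 1.33 ± 0.23 and the exportin gene Xpo4 by 1.32 ± 0.35. In the ubiquitin list 7 of 23 rose and 3 fell. Cdc20, through which the anaphase-promoting complex finds its mitotic targets, rose by 5.03 ± 0.29, its ubiquitin-chain enzyme Ube2s by 1.57 ± 0.27 and Ube2t, of crosslink repair, at least 1.59-fold. Fbxw7, the ligase subunit that targets cyclin E, fell by 2.25 ± 0.23, and Btrc, which targets catenin and inhibitors of NF-kappa-B, fell by 1.28 ± 0.27. Detected in part of a group were Chaf1b and Xpo4 (2 of 3 controls). Kpna1 did not pass without tumor 1, tumor 3, control 1 or control 2 (-0.82 to -0.68).

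**Figure D4:**
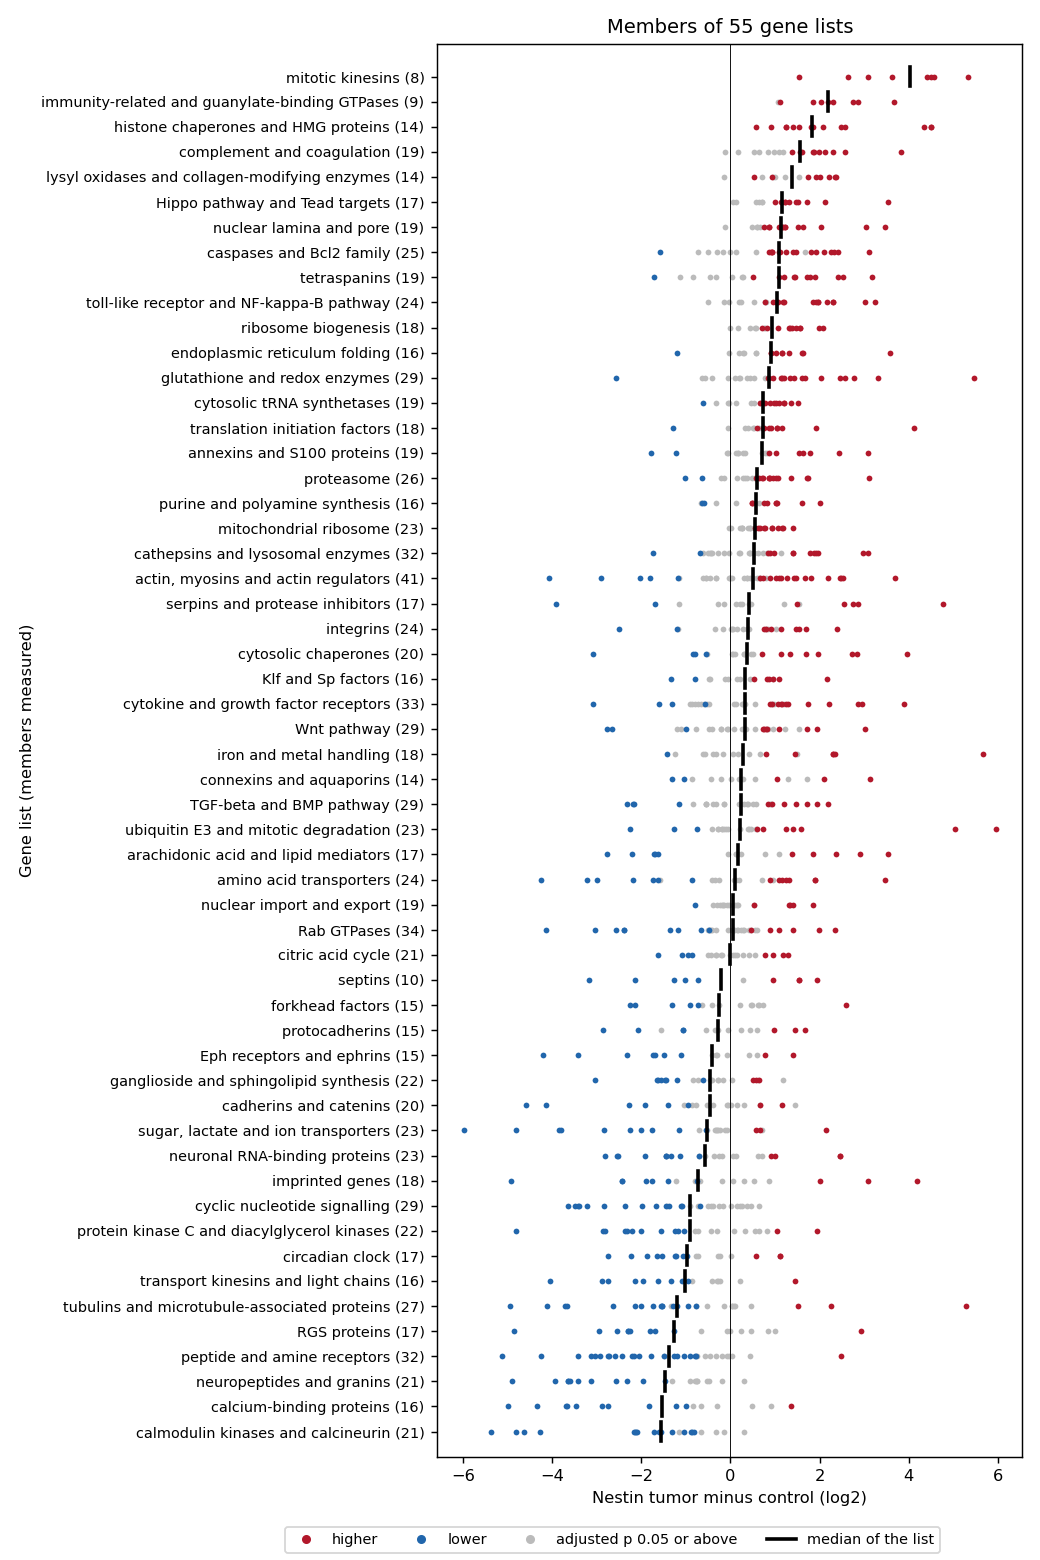
Difference between Nestin tumors and controls (horizontal axis, log2) of each measured member of 55 gene lists (rows, ordered by median, with the number of members measured). Red points rose, blue points fell, grey points were not called and black bars are medians, which run from -1.55 for calmodulin kinases and calcineurin to 4.02 for mitotic kinesins.

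Genes of protein synthesis rose more often than the background of 24.4%, by smaller amounts. Of 18 ribosome biogenesis genes 11 rose and 0 fell (median 0.93). Nop58, of the particle that methylates ribosomal RNA, measured 11.69, 11.49 and 11.56 in tumors and 9.39, 9.44 and 9.67 in controls and rose by 2.08 ± 0.17, and Pes1, of large subunit maturation, rose by 1.98 ± 0.28. Gar1 and Nhp2, of the pseudouridine-forming particle, rose by 1.57 ± 0.21 and 1.56 ± 0.39. Of 19 cytosolic tRNA synthetases 11 rose, led by Rars, Vars, Iars and Mars1, which charge arginine, valine, isoleucine and methionine tRNAs, at 1.52 ± 0.38, 1.37 ± 0.28, 1.21 ± 0.20 and 1.20 ± 0.27. The exception was Wars, the tryptophan enzyme, which fell by 0.62 ± 0.23. Of 18 initiation factors 10 rose and 1 fell (median 0.72). The largest rise was of an inhibitor, Eif4ebp1, which binds the cap-binding factor when mTOR is inactive: it measured 12.26, 11.30 and 11.93 in tumors and 8.32, 6.90 and 7.92 in controls and rose by 4.12 ± 0.36 (adjusted p = 1.03e-06). Eif2s2 rose by 1.93 ± 0.25 and the scaffold subunit Eif3b by 1.15 ± 0.25, while the helicase gene Eif4a2, known for its high level in brain, fell by 1.29 ± 0.31. Wars did not pass without tumor 2, tumor 3, control 1, control 2 or control 3 (-0.68 to -0.49).

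Of 23 mitochondrial ribosome genes 11 rose and 0 fell (median 0.56), with Mrps28 at 1.41 ± 0.33, Mrpl13 at 1.19 ± 0.25, Mrps7 at 1.16 ± 0.22 and Mrpl15 at 1.06 ± 0.23. The citric acid cycle list was balanced at 4 rises and 4 falls among 21, and the sign of its median (-0.018) turned positive in some settings. The isocitrate dehydrogenase gene Idh2, whose enzyme makes NADPH, rose by 1.18 ± 0.25, while Dlat, of the pyruvate dehydrogenase complex, fell by 1.08 ± 0.24. Suclg2, of the GTP-forming succinate ligase, rose by 1.30 ± 0.28, and Pcx, which makes oxaloacetate from pyruvate, fell by 1.62 ± 0.32. In purine and polyamine synthesis 9 of 16 rose and 2 fell. Gmps, which makes GMP, rose by 2.01 ± 0.23, and Odc1, the first enzyme of polyamine synthesis, by 1.61 ± 0.20. Srm, which makes spermidine, rose by 1.04 ± 0.33 and Atic, of the last steps to IMP, by 1.03 ± 0.24, while the salvage enzyme gene Hprt fell by 0.60 ± 0.23 and Oaz2, an antizyme that inhibits Odc1, fell by 0.64 ± 0.18. Partly detected genes here were Gmps (1 of 3 controls). Srm did not pass without tumor 1, tumor 3, control 1 or control 2 (0.75 to 1.01). Hprt did not pass without tumor 1, tumor 2, control 1, control 2 or control 3 (-0.63 to -0.46).

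Of 26 proteasome genes measured 14 rose and 2 fell (median 0.60). The largest rises were of genes known as interferon-inducible: Psmb8 measured 11, 11.81 and 10.79 in tumors and 7.80, 7.75 and 8.74 in controls and rose by 3.10 ± 0.45, Psmb9 rose by 1.72 ± 0.49, and the activator genes Psme2 and Psme1 by 1.74 ± 0.37 and 1.35 ± 0.31. The nuclear activator gene Psme3 fell by 1.03 ± 0.27 and Psmc5, an ATPase of the regulatory particle, fell by 0.63 ± 0.22. Among 20 cytosolic chaperones 8 rose and 4 fell. The small heat shock genes Hspb1, Hspb8 and Hspb6 rose by 3.96 ± 0.55, 2.85 ± 0.33 and 2.73 ± 0.20, and Cct4, of the chaperonin that folds actin and tubulin, by 1.96 ± 0.20. Dnajc6, which uncoats clathrin vesicles at synapses, fell by 3.09 ± 0.49 and Stip1, which links Hsp70 to Hsp90, fell by 0.84 ± 0.32. Of 16 genes of folding in the endoplasmic reticulum 9 rose and 1 fell. Trib3, a pseudokinase of the stress response, rose by 3.58 ± 0.40, and the folding genes Creld2, Pdia5 and Sdf2l1 rose by 1.63 ± 0.36, 1.60 ± 0.35 and 1.31 ± 0.47, while Atf6, a sensor of unfolded proteins, fell by 1.19 ± 0.23. Signal was above background on only part of a group for Trib3 (1 of 3 controls), Psmb9 (2 of 3 controls), and Atf6 (2 of 3 tumors). Psmb9 did not pass without tumor 2 or control 2 (1.34 to 1.47). Psmc5 did not pass without tumor 1, tumor 3, control 2 or control 3 (-0.65 to -0.43). Stip1 did not pass without tumor 1, tumor 2, control 2 or control 3 (-0.81 to -0.63). Sdf2l1 did not pass without tumor 2, control 1, control 2 or control 3 (0.89 to 1.42).

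Of 21 calmodulin kinase and calcineurin genes 16 fell and 0 rose, with the lowest median of the lists (-1.55). Nrgn, which holds calmodulin in dendritic spines, measured 7.75, 6.81 and 7.34 in tumors and 12.29, 11.89 and 12.12 in controls and fell by 4.80 ± 0.36 (adjusted p = 2.94e-07). Camk4 fell by 4.63 ± 0.53 and the kinase-like gene Camkv fell by 4.28 ± 0.30. Of 16 calcium-binding protein genes 10 fell and 1 rose. Vsnl1 and Hpca, sensors of the visinin family, fell by 4.34 ± 0.37 and fell by 3.70 ± 0.69, Hpcal4 fell by 3.66 ± 0.61, and Calb2, which encodes calretinin, rose by 1.36 ± 0.45. For Hpca all 3 tumors lay below every control, with tumor 2 the lowest (10.23, 7.52 and 10.89 against 13.28, 13.26 and 13.20). Calb2 did not pass without tumor 1, tumor 3, control 2 or control 3 (0.90 to 1.37).

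None of 29 genes of cyclic nucleotide signalling rose and 14 fell (median -0.90). The adenylate cyclase genes Adcy2 and Adcy9 fell by 3.65 ± 0.56 and fell by 3.49 ± 0.29, and the phosphodiesterase genes Pde2a and Pde1a fell by 3.43 ± 0.34 and fell by 3.40 ± 0.43. Of 17 RGS genes, brakes on G protein signalling, 9 fell (median -1.26). Rgs8 fell by 2.95 ± 0.47, Rgs6 fell by 2.55 ± 0.20 and Rgs7bp, a membrane anchor of that family, fell by 2.30 ± 0.29. The single rise was of Rgs1, a gene of lymphocytes and microglia, at least 4.4-fold. Of 22 genes of protein kinase C and lipid signalling 11 fell. Itpka, which phosphorylates inositol trisphosphate in spines, measured 7.36, 7.43 and 7.06 in tumors and 12.15, 12.05 and 12.08 in controls and fell by 4.81 ± 0.28, while Prkce, Prkcz and Dgkh differed by -2.85 ± 0.33, -2.81 ± 0.33 and -2.36 ± 0.28. The 2 rises were of genes used in blood cells, Plcg2 at 1.93 ± 0.48 and Prkcd at 1.04 ± 0.32. Detection was incomplete in 1 group for Rgs6 (1 of 3 tumors), and Adcy9 (2 of 3 tumors). Prkcd did not pass without control 3 (0.82).

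Of 21 neuropeptide and granin genes 11 fell and 0 rose (median -1.47). Sst, the somatostatin of interneurons, measured 7.83, 8.15 and 8.002 in tumors and 12.19, 11.51 and 12.11 in controls and fell by 3.94 ± 0.35. Adcyap1, which encodes the peptide PACAP, measured 4.82, 8.46 and 5.69 in tumors, highest in tumor 2, and 9.999, 10.14 and 9.77 in controls, and fell by 3.65 ± 0.89. Vip, a peptide of another interneuron class, fell by 3.64 ± 0.50. Of 32 receptors for peptides and amines 21 fell and 1 rose (median -1.38). The histamine autoreceptor gene Hrh3 fell at least 15.8-fold, the serotonin receptor gene Htr1a fell by 3.43 ± 0.33 and the neurotensin receptor gene Ntsr1 at least 5.51-fold. The single rise was of P2ry1, a receptor for extracellular ADP, at 2.48 ± 0.55 (9.03, 10.06 and 9.22 against 7.19, 7.56 and 6.10). Among 23 neuronal RNA-binding protein genes 9 fell and 4 rose. The splicing regulators Rbfox1 and Rbfox3 fell by 2.82 ± 0.36 and fell by 2.54 ± 0.37, and Celf4 and Cpeb3 differed by -2.53 ± 0.38 and -1.92 ± 0.24. Ptbp1, a splicing repressor that is low in neurons, rose by 2.45 ± 0.26, and Celf5 rose at least 4.61-fold. Above background on only some arrays of 1 group were Htr1a (1 of 3 tumors), and Adcyap1 and Vip (2 of 3 tumors).

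Transporters and adhesion proteins moved in both directions. Of 23 sugar, lactate and ion transporters 10 fell and 3 rose. The plasma membrane calcium pump gene Atp2b2 measured 7.44, 6.10 and 7.55 in tumors and 11.78, 11.92 and 11.82 in controls and fell by 4.81 ± 0.35, and the exchanger genes Slc24a2 and Slc8a2 fell by 3.84 ± 0.42 and at least 11.8-fold. The cotransporter gene Slc12a4 rose by 2.15 ± 0.27 and the glucose transporter gene Slc2a1 by 0.65 ± 0.23. Among 24 amino acid transporters 8 rose and 7 fell, and the median of 0.11 changed sign in some settings. The cationic amino acid transporter gene Slc7a3 rose by 3.46 ± 0.53, Slc7a7 by 1.91 ± 0.37, Slc1a4 by 1.90 ± 0.37 and Slc7a6 by 1.31 ± 0.30. The proline transporter gene Slc6a7, of glutamate synapses, fell at least 18.4-fold, Slc7a4 fell by 3.22 ± 0.36 and the synaptic vesicle transporter gene Slc6a17 fell by 2.99 ± 0.50. Connexins and aquaporins gave 3 rises and 2 falls among 14, with Aqp5 at 3.13 ± 0.50 and the glycerol channel Aqp9 at 2.11 ± 0.52. Panx1, a channel that releases ATP, rose by 1.05 ± 0.27, and Gjd2, the connexin of neuronal gap junctions, fell by 1.31 ± 0.46, as did the aquaporin gene Aqp11 (-1.04 ± 0.34). Detection was partial in 1 group for Slc12a4 and Aqp5 (1 of 3 controls). Slc2a1 did not pass without tumor 2, tumor 3, control 1 or control 3 (0.52 to 0.68). Gjd2 did not pass without tumor 2, control 1, control 2 or control 3 (-1.37 to -0.66). Aqp11 did not pass without tumor 3 or control 3 (-0.90 to -0.86).

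Of 19 tetraspanins, which organise membrane domains, 11 rose and 1 fell (median 1.10). Tspan6 rose by 3.18 ± 0.19, Cd63, of late endosomes and exosomes, by 2.53 ± 0.30, Cd9 by 2.40 ± 0.28 and Tspan4 by 1.89 ± 0.24, while Tspan2, of oligodendrocytes, fell by 1.71 ± 0.30. Integrins and their partners gave 8 rises and 2 falls among 24. Itga9 rose by 2.38 ± 0.43, the shared beta chain gene Itgb1 by 1.69 ± 0.23 and the fibronectin receptor gene Itga5 by 1.54 ± 0.49, and Itga1 rose at least 2.45-fold. Itgb4, the laminin receptor chain of hemidesmosomes, fell by 2.495 ± 0.62, and Tln2, a talin of brain and muscle, fell by 1.20 ± 0.29. Cadherins leaned the other way, with 6 falls and 2 rises among 20 (median -0.46). Cdh8 fell by 4.58 ± 0.23, Cdh12 fell at least 10.4-fold, and the planar polarity cadherins Celsr2 and Celsr3 fell by 2.28 ± 0.30 and fell by 1.91 ± 0.39. Cdh20 rose by 1.15 ± 0.28 and Cdh13 by 0.66 ± 0.25. Protocadherins gave 3 rises and 4 falls among 15, with Pcdhac2 and Pcdh9 at -2.85 ± 0.36 and -2.06 ± 0.36 and Pcdh7 and Pcdhgc3 at 1.67 ± 0.45 and 1.44 ± 0.35, and the median of -0.27 turned positive with arrays scaled to their medians. Not every array of both groups was above background for Itga5, Pcdh7 and Pcdhgc3 (2 of 3 controls), Cdh8 (1 of 3 tumors), and Itgb4 (2 of 3 tumors). Itga5 did not pass without tumor 3 or control 1 (1.09 to 1.32). Tln2 did not pass with the mean of all its probes in place of the brightest (-0.56). Itga1 did not pass without tumor 2, tumor 3, control 1, control 2 or control 3 (1.27 to 1.501). Cdh13 did not pass without tumor 1, tumor 2, tumor 3, control 1, control 2 or control 3 (0.62 to 0.73).

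Of 27 tubulins and microtubule-associated proteins 15 fell and 3 rose. The beta tubulin gene Tubb6 measured 10.06, 10.03 and 10.95 in tumors, was above background in no control and rose at least 30.6-fold, and Tubb2b, of developing brain, rose by 1.52 ± 0.16. The oligodendrocyte protein gene Tppp fell by 4.12 ± 0.28, the alpha tubulin gene Tuba4a fell by 3.72 ± 0.35 and Map4 fell by 3.67 ± 0.37. The plus-end protein gene Mapre1 rose by 2.26 ± 0.20. Among 41 actin, myosin and regulator genes 16 rose and 5 fell (median 0.51). Tagln2 measured 11.44, 11.25 and 12.05 in tumors and 7.65, 7.64 and 8.35 in controls and rose by 3.70 ± 0.37 (adjusted p = 3.42e-06), Arpc1b, of the actin-branching complex, rose by 2.52 ± 0.43, Myl12a, a myosin light chain, by 2.48 ± 0.39 and the tropomyosin gene Tpm4 by 2.47 ± 0.20. Myo5b, a motor of recycling vesicles, fell by 4.08 ± 0.56 and Actn2, an actinin of spines and muscle, fell by 2.90 ± 0.43. Septins, filament-forming GTPases, gave 4 rises and 5 falls among 10, with Septin8 and Septin2 at 1.95 ± 0.28 and 1.54 ± 0.17, and Septin5, of synaptic terminals, and Septin6 at -3.17 ± 0.42 and -2.14 ± 0.36. Rab GTPases gave 6 rises and 9 falls among 34, and their median of 0.063 changed sign in some settings. Rab26, Rab15, the brain isoform Rab6b and the vesicle protein Rab3b differed by -4.14 ± 0.63, -3.04 ± 0.34, -2.57 ± 0.35 and -2.39 ± 0.48, while Rab32 and Rab1a rose by 2.35 ± 0.40 and 1.99 ± 0.31. Annexin and S100 genes gave 7 rises and 2 falls among 19, led by S100a11 at 3.08 ± 0.48, Anxa2 at 2.44 ± 0.34 and Anxa3 at 1.78 ± 0.46, against Anxa11 at -1.77 ± 0.43 and Anxa7 at -1.21 ± 0.26. Of the genes just named, those detected on part of a group were Myo5b (1 of 3 tumors), and Anxa7 (2 of 3 tumors).

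Of 24 genes of the toll-like receptor and NF-kappa-B pathway 16 rose and 0 fell (median 1.05). The receptor gene Tlr2 measured 8.98, 10.91 and 9.83 in tumors and 6.71, 6.91 and 6.36 in controls and rose by 3.25 ± 0.44, its co-receptor Cd14 rose by 3.01 ± 0.45, and Tlr4 and Tlr6 by 2.31 ± 0.32 and 2.30 ± 0.49. Of 9 interferon-inducible GTPases 8 rose, with Ifi47 at least 9.62-fold higher, Gbp3 at 2.85 ± 0.48, Irgm1 at 2.74 ± 0.61 and Gbp2 at 2.29 ± 0.83. The remaining member, Gbp5, was not called, at 5.47, 6.54 and 5.28 in tumors and 4.66, 4.68 and 4.72 in controls. Of 19 complement and coagulation genes 10 rose and 0 fell (median 1.57). The thrombin receptor gene F2r rose by 3.82 ± 0.32, the clotting inhibitor gene Tfpi by 2.57 ± 0.27, the plasminogen activator gene Plat by 2.30 ± 0.34 and C1qa, the starter of the classical complement pathway, by 2.12 ± 0.43. Of 25 caspase and Bcl2 family genes 16 rose and 1 fell. The inflammatory caspase gene Casp4 rose by 3.10 ± 0.36, and the death receptor pathway genes Casp8, Fadd and Cflar rose by 2.41 ± 0.37, 2.33 ± 0.35 and 2.25 ± 0.38. Bcl2l2, a survival protein, fell by 1.58 ± 0.20. Detected in part of a group were Tlr4 and Casp4 (1 of 3 controls). Gbp2 did not pass without tumor 2, tumor 3, control 1, control 2 or control 3 (1.70 to 2.43).

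Of 5 microglia and macrophage markers measured, Lyz2 and Tyrobp rose, by 3.25 ± 0.46 and 1.81 ± 0.44, while Aif1 (1.11 ± 0.49), Cx3cr1 (-0.36 ± 0.44) and Csf1r (-0.74 ± 0.39) were not called. Without tumor 2, Cx3cr1 and Csf1r passed as lower (-1.08 and -1.29), as did Csf1r with array weights (-0.93), and without tumor 3 Aif1 passed as higher (1.54). The summed linear signal of the 5 markers was 5050 to 10800 in tumors, highest in tumor 2, and 2100 to 2780 in controls. The part these cells play in the immune lists was not tested. Of 32 cathepsin and lysosomal genes 11 rose and 2 fell, with the inhibitor gene Cst7 at 3.09 ± 0.54, the protease activator Ctsc at 2.97 ± 0.27, and Lamp2 and Gusb at 1.97 ± 0.23 and 1.91 ± 0.32. The collagen-cutting protease gene Ctsk fell by 1.75 ± 0.68 and the sphingolipid activator precursor Psap fell by 0.69 ± 0.24. Of 17 protease inhibitor genes 5 rose and 2 fell: the metalloproteinase inhibitor gene Timp1 rose at least 23.6-fold, Serpina3n, a mark of reactive glia, by 2.86 ± 0.41, Slpi by 2.75 ± 0.52 and Timp4 by 2.54 ± 0.43. Serpini1, the neuronal serpin, fell by 3.90 ± 0.30 and Serpinb1a fell by 1.68 ± 0.59. Of 14 genes of collagen modification 8 rose and 0 fell (median 1.38), led by the matrix glycoprotein Sparc at 2.38 ± 0.37, the lysyl hydroxylase Plod2 at 2.35 ± 0.50, the lysyl oxidase Loxl1 at 2.21 ± 0.37 and the prolyl hydroxylase P3h2 at 2.02 ± 0.58. Partly detected genes here were Cst7 and Slpi (1 of 3 controls), Ctsc (2 of 3 controls), and Serpinb1a (1 of 3 tumors). P3h2 did not pass with the mean of all its probes in place of the brightest (1.25) or without background correction (0.93). Ctsk did not pass without tumor 1, tumor 2, tumor 3, control 1, control 2 or control 3 (-2.03 to -1.38). Psap did not pass without tumor 1, control 1, control 2 or control 3 (-0.72 to -0.47). Serpinb1a did not pass without tumor 1, tumor 3, control 1, control 2 or control 3 (-1.79 to -1.49).

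Receptors and growth pathways were divided. Among 33 cytokine and growth factor receptors 12 rose and 4 fell. Tnfrsf12a, the receptor of TWEAK, measured 10.62, 9.96 and 11.34 in tumors and 6.82, 6.22 and 7.17 in controls and rose by 3.90 ± 0.41, the oncostatin receptor gene Osmr rose by 2.96 ± 0.35, Tnfrsf1a by 2.86 ± 0.42 and the collagen receptor Ddr2 at least 3.01-fold. Tyro3, a receptor kinase of neurons, fell by 3.07 ± 0.30 and the neurotrophin receptor gene Ntrk3 fell by 1.60 ± 0.29. With the mean of all its probes in place of the brightest, Ntrk3 did not pass (-0.63). Of 17 Hippo pathway genes 11 rose and 0 fell (median 1.15). The matricellular target Ccn1 rose at least 8.62-fold and the transcription factor Tead1 by 2.12 ± 0.26, Tgfb2 by 1.73 ± 0.35 and the coactivator Wwtr1 by 1.51 ± 0.31. In the Wnt list 8 of 29 rose and 3 fell: the receptor gene Fzd9 rose by 3.01 ± 0.59, the factor gene Tcf7l1 by 1.94 ± 0.49, the secreted modulator Sfrp2 at least 2.33-fold and the ligand Wnt5b by 1.09 ± 0.31, while the ligand Wnt4 and the secreted protein Dkk3 fell by 2.77 ± 0.66 and fell by 2.65 ± 0.32. In the TGF-beta and BMP list 7 of 29 rose and 4 fell. The share of rises in this list and in the Wnt list was near the 24.4% over all genes. Tgfbi, a matrix protein induced by TGF-beta, rose by 2.20 ± 0.38, the ligand Bmp7 by 1.95 ± 0.46 and the signal carrier Smad5 by 1.46 ± 0.29, while Bmp3 fell by 2.31 ± 0.26, the BMP antagonist gene Chrd fell by 2.19 ± 0.37 and the ligand gene Gdf10 fell by 2.17 ± 0.38. Of 15 Eph receptor and ephrin genes 7 fell and 2 rose. Epha7 fell by 4.20 ± 0.42, Ephb6 fell by 3.42 ± 0.38, Efna5 fell by 2.32 ± 0.45 and Epha5 fell by 1.73 ± 0.50, while the ligands Efnb1 and Efna1 rose by 1.41 ± 0.27 and 0.76 ± 0.26. Signal was above background on only part of a group for Tnfrsf1a (2 of 3 controls), Bmp3 and Epha7 (1 of 3 tumors), and Wnt4 and Gdf10 (2 of 3 tumors). Wnt5b did not pass without control 1 (0.88). Epha5 did not pass without control 1 (-1.45). Efna1 did not pass without tumor 1, tumor 3, control 1 or control 2 (0.61 to 0.75).

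Families of transcription factors were mixed. Of 15 forkhead factors 5 fell and 1 rose, and the median of -0.27 turned positive with arrays scaled to their medians. Foxm1, a driver of mitotic genes, rose by 2.59 ± 0.35, and the Foxp genes Foxp1, Foxp4 and Foxp2 fell by 2.25 ± 0.39, fell by 2.14 ± 0.40 and fell by 1.31 ± 0.35. Of 16 Klf and Sp factors 6 rose and 2 fell: Sp5, a Wnt target in embryos, rose at least 3.44-fold, Klf6 by 1.08 ± 0.25 and Sp1 at least 1.36-fold, while Klf16 fell by 1.34 ± 0.22 and Klf13 fell by 0.80 ± 0.23. Of 17 circadian clock genes 9 fell and 3 rose (median -0.98). Npas2, the forebrain partner of Bmal1, measured 6.58, 6.80 and 5.84 in tumors and 8.69, 9.40 and 9.36 in controls and fell by 2.74 ± 0.52, Per3 fell by 2.23 ± 0.52, the repressor gene Nr1d1 fell by 1.86 ± 0.30 and Cry2 fell by 1.64 ± 0.23, while the receptor gene Rorb and the kinase gene Csnk1d rose by 1.11 ± 0.42 and 1.11 ± 0.27. The sources used here give no hour of tissue collection. Detection was incomplete in 1 group for Foxp2 and Per3 (2 of 3 tumors). Sp5 did not pass without tumor 1 (1.46). Csnk1d did not pass with the mean of all its probes in place of the brightest (0.55). Klf13 did not pass without tumor 3 or control 3 (-0.66 to -0.63). Rorb did not pass without tumor 2, tumor 3, control 1, control 2 or control 3 (0.81 to 1.17).

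Imprinted genes of 1 chromosomal domain moved in opposite directions. Dlk1, a Notch-like membrane protein made from the paternal copy, measured 9.21, 9.82 and 9.40 in tumors 1 to 3, was above background in no control (5.17, 5.31 and 5.42) and rose at least 16.7-fold. Meg3 and Rian, noncoding RNAs made from the maternal copy of the same domain, measured 6.65, 5.18 and 6.18 and 5.56, 4.91 and 5.66 in tumors against 10.42, 11.22 and 11.09 and 7.98, 8.09 and 7.37 in controls, and fell by 4.91 ± 0.35 and fell by 2.44 ± 0.30. Rtl1, a paternally expressed gene of the domain, fell by 2.44 ± 0.24. The groups did not overlap for these 4 genes. Of 18 imprinted genes 3 rose and 7 fell, with the other rises at Mest, a hydrolase-like protein, by 3.09 ± 0.38 and Nnat, a small membrane protein of developing brain, by 2.01 ± 0.56. Impact, a translation regulator, fell by 1.89 ± 0.46. Arrays do not tell the parental copies apart. Above background on only some arrays of 1 group were Meg3, Rian and Rtl1 (2 of 3 tumors).

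Of 29 glutathione and redox genes 16 rose and 1 fell (median 0.87). After Hmox1, the peroxidase genes Gpx7, Gpx3 and Gpx8 rose by 3.30 ± 0.45, 2.77 ± 0.52 and 2.56 ± 0.76, while the microsomal transferase gene Mgst3 fell by 2.58 ± 0.31. Of 18 genes of iron and metal handling 6 rose and 1 fell: the metallothionein gene Mt2 rose by 2.35 ± 0.40, the phagosome transporter gene Slc11a1 by 2.31 ± 0.48 and the ferritin light chain gene Ftl1 by 2.30 ± 0.26, while the iron importer gene Slc11a2 fell by 1.42 ± 0.27. Lipid mediator genes gave 5 rises and 5 falls among 17. Receptors for sphingosine and lysophosphatidic acid were on both sides, with S1pr2 and Lpar4 at 3.53 ± 0.27 and 2.92 ± 0.51 and Lpar1 at -1.71 ± 0.59. The fatty acid carrier gene Fabp5 rose by 2.36 ± 0.38, Ptgds, the prostaglandin D synthase of brain, fell by 2.77 ± 0.68 and the carrier gene Fabp3 fell by 2.21 ± 0.48. Of 22 ganglioside and sphingolipid genes 8 fell and 3 rose, with Fa2h and Ugt8a, which make myelin galactolipids, at -3.04 ± 0.42 and -1.64 ± 0.28, and the sialyltransferase genes St8sia3 and St8sia5 at -1.63 ± 0.38 and -1.56 ± 0.36. The ceramidase gene Asah1 rose by 0.65 ± 0.23 and the ceramide synthase gene Cers2 by 0.56 ± 0.21. Detection was partial in 1 group for Fabp5 (1 of 3 controls). Gpx8 did not pass without tumor 2, tumor 3 or control 2 (2.23 to 2.33). Lpar1 did not pass without tumor 1, control 2 or control 3 (-1.64 to -1.44). Asah1 did not pass without tumor 2, tumor 3, control 1 or control 3 (0.44 to 0.69). Cers2 did not pass without tumor 2, tumor 3, control 1 or control 3 (0.46 to 0.55).

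Nes, whose sequences drove Cre, measured 8.91, 9.18 and 9.81 in tumors and was above background in no control, and rose at least 14.8-fold. Cspg4, which encodes NG2, measured 9.69, 8.13 and 8.13 in tumors and 6.88, 7.22 and 7.16 in controls and rose by 1.57 ± 0.47 (adjusted p = 0.0134), and it did not pass without tumor 1 (1.05). Olig2, a factor of the oligodendrocyte lineage, measured 9.43, 8.56 and 8.48 in tumors and 6.31, 6.56 and 6.41 in controls and rose by 2.40 ± 0.36. For all 3 genes every tumor lay above every control. Nf1, a brake on Ras that is deleted in some mouse glioma models, was above background in no tumor and in every control (6.75, 6.27 and 6.92) and fell at least 2.36-fold (adjusted p = 0.0044). The labels do not say whether Nf1 was targeted or where its probe lies relative to any deletion, so this value checks no label.

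Of all genes tested, 186 had a 95% interval of the difference within 0.5 log2 units of 0. The 10 described here had the narrowest intervals among those with a mean signal above the median gene. The 10 narrowest were mostly genes that every cell uses at high level: the ATP synthase gene Atp5b (-0.13 ± 0.11), the creatine kinase gene Ckb (-0.15 ± 0.11), the alpha tubulin gene Tuba1b (0.045 ± 0.12), the elongation factor gene Eef1a1 (0.049 ± 0.12), the ribosomal gene Rpl3 (-0.059 ± 0.13), Rtl8a (-0.12 ± 0.13), the cyclophilin gene Ppia (0.00 ± 0.13), the beta tubulin gene Tubb5 (0.11 ± 0.14), the mitochondrial carrier gene Mtch1 (-0.084 ± 0.14) and Uqcrc2, of the respiratory chain (-0.13 ± 0.15). Ppia measured 14.21, 14.47 and 14.40 in tumors and 14.45, 14.20 and 14.42 in controls, and the groups overlapped. These genes lie near the top of the signal range, and under cyclic loess normalization 9 of the 10 passed the threshold, all lower in tumors, such as Ckb at -1.17 and Atp5b at -1.04. The cause was not tested.

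The tumors differed from each other at certain genes by far more than the controls did. A gene was counted as standing apart in 1 tumor where it lay at least 2 log2 units from the mean of the other 2 and these were within 1 unit of each other. Tumor 1 had 35 genes higher and 55 lower by this measure, tumor 2 had 102 higher and 39 lower, and tumor 3 had 50 higher and 8 lower, while single controls had at most 9 higher and 4 lower. The 15 genes with the largest SD over tumors were led by Ttr, the thyroxine carrier made by choroid plexus, at 4.69, 4.62 and 14.18 in tumors 1 to 3 and 8.12, 7.44 and 7.27 in controls. In tumor 3 the ion channel gene Clic6 (12.22), the hormone co-receptor gene Kl (10.03) and the angiotensin-converting enzyme gene Ace (9.94) were high as well, as was Otx2, a factor of choroid plexus (9.08, against 4.66 and 4.83 in the other tumors). The 4 measured choroid plexus markers summed to 20700 in tumor 3, 145 and 159 in tumors 2 and 1, and 270 to 374 in controls. None of these 4 markers was called over the group, and Ttr differed by 0.22 ± 1.83 with tumor 3 and by -2.96 without it. Ace also passed as lower without tumor 3 (-1.76).

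In tumor 1 the red blood cell genes were high: Alas2, the heme synthesis enzyme of red cells, measured 10.10, 5.04 and 4.88 in tumors and 5.84, 7.80 and 5.97 in controls, and the globin gene Hbb-bs measured 14.85, 11.30 and 10.95 in tumors and 12.87, 13.10 and 12.62 in controls. Alas2 differed by 0.14 ± 1.06 over the group and by -1.58 without tumor 1, and Hbb-bs by -0.49 ± 0.84 and by -1.73; both passed as lower without that tumor. The 3 measured red cell markers summed to 52000 in tumor 1, 4260 and 2830 in tumors 2 and 3, and 9850 to 16600 in controls, and the amount of blood in the tissue was not given in the sources used here. In tumor 2 Cxcl13, the chemokine that draws B cells, measured 12.32, against 5.14 and 8.43 in tumors 1 and 3 and at most 4.60 in controls, a rise of at least 9.27-fold that did not pass without tumor 2 (2.23) or without control 3 (4.04). Mzb1, of plasma cells, measured 9.27 in tumor 2 against 5.15 and 5.72, and Trp63, the p53 relative of epithelia, 10.16 against 4.51 and 4.75. The T cell gene Cd3e and the B cell gene Cd79b, the single measured markers of those lists, were not called (-0.02 ± 0.29 and 0.46 ± 0.26). Tumor 2 was also highest for the dehydrogenase gene Bdh2 (7, 12.27 and 9.004), the secreted protein gene Mia (7.41, 12.33 and 8.57) and the ferritin receptor gene Scara5 (4.76, 9.97 and 6.98), and lowest for Ttc27 (9.81, 4.70 and 9.18) and Insyn2b (10.03, 4.94 and 9.09). None of these 5 genes or Mzb1 was called over the group. Without tumor 1, Bdh2, Mia, Scara5 and Mzb1 passed as higher (3.16, 3.98, 3.66 and 2.27), and without tumor 2 so did Ttc27 and Insyn2b (1.01 and 4.13). Gpr137b-ps, annotated as a pseudogene, measured 9.93, 5.03 and 4.91 in tumors and 9.69, 9.04 and 8.69 in controls, so that tumors 2 and 3 lay below every control, and fell by 2.52 ± 0.98 (adjusted p = 0.0479). It did not pass without tumor 2, tumor 3 or any 1 control (-2.75 to -1.66). The predicted gene Gm3696 measured 9.47, 4.71 and 4.83 in tumors and 7.89, 8.12 and 4.70 in controls and was not called. The probes of both could also bind related transcripts.

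**Figure D5:**
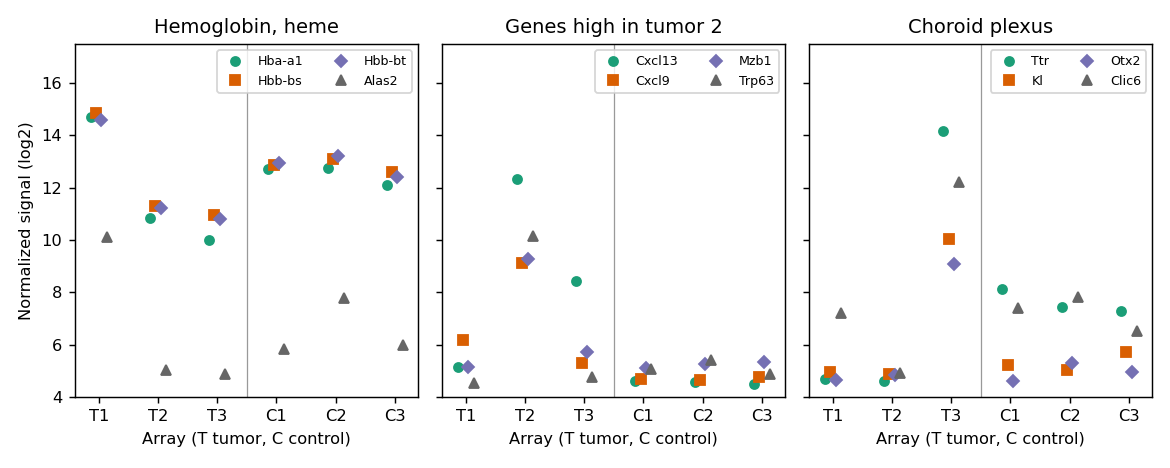
Normalized signal (vertical axis, log2) of 12 genes on the 3 tumor (T1 to T3) and 3 control (C1 to C3) arrays. Hemoglobin and heme genes were highest in tumor 1, Cxcl13, Cxcl9, Mzb1 and Trp63 in tumor 2 and choroid plexus genes in tumor 3.

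The NG2 model gave another tumor effect with its own controls, 4 tumors against 3 controls. Of 5520 genes called in the Nestin comparison 4168 were also called in the NG2 comparison, which is 75.5% of the Nestin calls and 69% of the 6043 NG2 calls, and 4135 of these had the same direction. The effect differed between models at 453 genes (3.8%), by the adjusted p of the difference of effects, and 290 of those were called in the Nestin comparison. Of the 453, 109 were above background on no Nestin tumor or on no Nestin control, 30 of them on no Nestin array, and 122 on no NG2 tumor or on no NG2 control, so that their differences rest on signals not above background. With the slide as a block the count was 184, and without Nestin control 1, 2 or 3 the count was 276, 244 or 238, and without NG2 control 2 or 3 it was 270 or 237. No slide held tumors of both models, so the model and the slide cannot be told apart for tumors. The differences that follow are Nestin effect minus NG2 effect.

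The 10 widest differences of effects were at Calb2, S100a5, Trh, Doc2g, Th, Scgn, Meis1, Nppa, Omp and Mcam. Calb2, which encodes calretinin, rose by 1.36 ± 0.45 in Nestin tumors and differed by -5.78 ± 0.42 in NG2 tumors, a difference of effects of 7.13 ± 0.61 (adjusted p = 1.85e-05). S100a5 and Doc2g were above background on 0 of the 6 Nestin arrays, and Th, the first enzyme of dopamine synthesis, and Scgn, the calcium sensor secretagogin, on 0 Nestin tumors and 2 Nestin controls. No difference of effects is given for these 4 genes, since their Nestin effect could not be measured. On NG2 arrays S100a5, Th, Scgn and Nppa were above background on 3 controls and 0 tumors, and Doc2g on 3 controls and 2 tumors. The part that the control tissue of each model plays in the widest differences was not tested. Omp, the marker protein of olfactory sensory neurons, was above background on 1 Nestin tumor (5.40, 5.46 and 5.14 in tumors and 5.45, 5.96 and 6.48 in controls). Nppa, which encodes atrial natriuretic peptide, was so on 1 Nestin tumor, 1 Nestin control and 0 NG2 tumors (5.22, 4.87 and 5.66 and 5.72, 4.99 and 4.76). Neither was called in the Nestin comparison, nor was Trh, which encodes thyrotropin-releasing hormone, with a difference of effects of 5.88 ± 1.32. Trh was high in 1 Nestin tumor (5.43, 5.10 and 9.41 in tumors 1 to 3), and its difference of effects did not pass with the slide as a block (5.75), without any 1 Nestin control (5.77 to 5.93) or without NG2 control 2 (5.87) or 3 (5.75). The Nestin rise of Calb2 did not pass without tumor 1, tumor 3, control 2 or control 3 (0.90 to 1.37).

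Meis1 and Egfr rose in Nestin tumors, and Mcam had its larger effect in NG2 tumors. Meis1, a homeobox cofactor, measured 10.93, 12.51 and 10.46 in Nestin tumors and 7.19, 7.58 and 6.78 in controls, a rise of 4.12 ± 0.44 against -1.04 ± 0.41 in NG2 tumors, and the difference of effects was 5.16 ± 0.61 (adjusted p = 0.000323). Egfr, a growth factor receptor, measured 10.54, 12.84 and 11.77 in Nestin tumors and 8.78, 8.83 and 8.51 in controls, a rise of 3.01 ± 0.61 against -0.92 ± 0.57, and the difference was 3.93 ± 0.84 (adjusted p = 0.0196), which did not pass with the slide as a block (3.73), without Nestin control 3 (3.83) or without NG2 control 3 (3.73). Mcam, an adhesion molecule of vessels and melanoma, differed by -1.14 ± 0.42 against 3.77 ± 0.40, and the difference was -4.90 ± 0.58 (adjusted p = 0.000323). In each case every Nestin tumor lay on one side of every Nestin control. The Nestin part of Mcam did not pass on its own without any 1 array other than tumor 3 (-1.24 to -1.004).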

How the data were processed

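Single-colour Illumina mouse BeadChips measured total RNA from flash-frozen tumor or brain. Non-normalized intensity values, the bead signal of a probe on an array, came in a table the authors deposited, and a detection p-value stands beside each per the file headers. The sources used here do not say whether the scanner subtracted background. The authors also deposited a table of log2 values for 38563 probes, its normalization not given, which correlated with the values computed here at 0.99998 or more for each array and served as an alternative.

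Intensities were corrected and quantile normalized with neqc of limma 3.58.1 (R 4.3.3, offset 16) over all 13 arrays, and probes with a detection p below 0.05 on 3 or more arrays were kept. Of 45281 probes 32093 had 1 symbol, 16 had several and 13172 had none here; 32035 matched a RefSeq gene of GRCm38.p6 by Entrez number. The brightest probe stood for a gene, and for 58 of 4680 genes with several probes the probes were called in opposite directions. A gene counted as above background on an array where any of its probes was. For a gene above background on no array of a group, the brighter group's mean was set against the dim group's mean after raising each dim array to its lowest detected signal.

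A mean per group was fitted to the 13 arrays with lmFit and eBayes with an intensity trend (9 residual and 4.666 prior degrees of freedom), so the NG2 arrays entered through the shared spread, normalization and filter. Benjamini-Hochberg adjustment ran over 11927 genes. The fit was tested on simulated data.

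Genes were named by rule: the 20 largest rises and 20 largest falls with groups that did not overlap, in each list the 4 largest changes and the 2 largest against the trend, the 10 narrowest genes of little change, the 15 with the largest SD over tumors, the 10 widest differences between models, and Nes, Cspg4, Nf1, Gfap, Olig2 and Egfr; cell type markers and a few others were named after their values were seen. The lists and this rule were chosen with earlier results of these data known. Markers of neurons, astrocytes, oligodendrocytes, microglia and macrophages, T cells, B cells, red blood cells and choroid plexus are described with the results; none of 3 neutrophil and 2 ependyma markers was called, of 5 endothelial markers 1 rose and 1 fell, of 5 mural cell markers 1 fell, and of 4 markers of meninges and fibroblasts 2 fell. Alternatives covered background correction, normalization, the dim filter, the probe choice, the slide, the replicate numbers, moderation and leaving out arrays.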

Additional observations from a re-analysis of the deposited data

Results flagged for a closer look

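The effect of the tumor differed between the Nestin and the NG2 model, by the adjusted p of the difference of effects, for 26 of the genes named here that were above background on at least 1 array of each Nestin group. The values that follow are Nestin effect minus NG2 effect in log2 units. A positive value means that the Nestin effect was the higher one, each effect being taken against its own controls. Positive values were those of Calb2 at 7.13, Trh at 5.88, the homeobox gene Meis1 at 5.16, Nppa at 5.08 and Omp at 5.06. Trh, Nppa and Omp were above background on 1 Nestin tumor each, and Nppa on 1 Nestin control and no NG2 tumor, so their values rest in part on signals not above background. Neuronal genes with a smaller fall in Nestin tumors than in NG2 tumors were Gad2 at 4.36, Rbfox3 at 3.7, Gjd2 at 3.7, Celsr3 at 3.33, Epha5 at 2.76, Sst at 2.45 and Rbfox1 at 1.95. Further positive values were those of the receptor gene Egfr at 3.93, the small heat shock gene Hspb1 at 3.59, the channel gene Aqp9 at 3.29, the lysyl oxidase gene Loxl1 at 2.59 and the metallothionein gene Mt2 at 2.16. On the other side stood the adhesion gene Mcam at -4.9, the motor gene Myo5b at -4.33, the myelin lipid genes Ugt8a at -2.97 and Fa2h at -2.27, Pde1a at -2.47, Ephb6 at -2.26, Dkk3 at -2.02, Efna1 at -1.92 and the oligodendrocyte tetraspanin gene Tspan2 at -1.73. Each value lost the threshold under at least 1 alternative for Trh, Egfr, Hspb1, Aqp9, Epha5, Sst, Rbfox1, Mt2, Fa2h, Pde1a, Ephb6, Dkk3 and Tspan2.

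Probes without a gene name lie outside the comparisons above. Of 5028 such probes that were detected on at least 3 arrays, 924 were higher in Nestin tumors and 1031 were lower by the adjusted p of the same limma fit.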

How the results depend on the processing

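The count of 5520 called genes ran from 5358 to 6069 across background corrections, normalizations and filters with all 13 arrays. It was 6348 with array weights, 5672 with the 6 Nestin arrays alone and 5380 with a replicate block. With the slide as a block it was 5248, within slide 1 it was 3822, and it was 4658 to 5077 when 1 Nestin array was left out. Scaling each array to its median moved the median of all genes from 0.06 to 0.45 and the share of rises among calls from 52.6% to 72.9%, and differences under it are read against that shift. Under that scaling 20 of the named genes lost their call. Among them were Oaz2 (-0.09), Psme3 (-0.46), Dlat (-0.52), Btrc (-0.70) and Eif4a2 (-0.85). The count with at least a 2-fold change dropped from 4028 to 2519 without background correction and was 3764 to 4075 when 1 array was left out. The count of genes whose effect differed between models was 184 with the slide as a block and 829 with array weights, and ran from 237 to 631 when 1 array of either model was left out; leaving out NG2 arrays was chosen after seeing the data. The replicate numbers did not pair the arrays: deviations of same-numbered tumor and control correlated at 0.035, -0.031 and 0.025, and not every array correlated best with its own number. The replicate block kept 5274 of the calls. With the slide as a block the calls of Asah1, Cdh13, Ctsk, Gbp2, Gpr137b-ps, Itga1, Mcam, Psap, Rorb, Sdf2l1, Serpinb1a, Stip1 and Wars were lost. The replicate block also ended those of Cdh13, Ctsk, Itga1, Mcam and Wars. Values that turned to the other side of 0 past the threshold were Eef1a1 (-0.82), Ppia (-0.59), Tuba1b (-0.84) and Tubb5 (-0.56) under cyclic loess, and Ttr within slide 1 (-3.13). With 1 array left out Ttr ran from -2.96 (without tumor 3) to 1.82, Alas2 from -1.58 (without tumor 1) to 1.03 and Ttc27 from -1.55 to 1.01 (without tumor 2). The cause was not tested. Within slide 3 only sizes could be had. Medians changed sign in at least 1 setting for the amino acid transporter, citric acid cycle, forkhead, nuclear import and export, protocadherin, Rab, septin and ubiquitin lists. Dim signals limit what can be measured: a gene near background has no measurable fall.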

Other observations

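Some genes of extracellular matrix and of the glial lineage parted 1 tumor from the other two. Tnc, a matrix glycoprotein of germinal zones, measured 9.41, 9.01 and 12.35 in tumors 1 to 3 and 5.90, 5.74 and 5.82 in controls, so that tumor 3 exceeded the others by about 3 log2 units while all 3 lay above every control. In tumor 3 the thrombospondin gene Thbs2 was highest as well (9.37, 10.04 and 11.76 in tumors), and Gpr17, a receptor of committed oligodendrocyte precursors, was lowest (11.17, 11.17 and 7.27 in tumors against 9.38, 9.53 and 9.13 in controls). Gpr17 was not called over the group (0.52 ± 0.74), but passed as higher without tumor 3 (1.82) and within slide 1 (1.72). Tumor 1 stood low for the metalloproteinase inhibitor gene Timp1 (7.32, 11.10 and 11.50 in tumors) and for the collagen gene Col6a1 (7.09, 10.20 and 9.91 against 10.11, 10.14 and 9.85 in controls). Col4a5, of basement membranes, was above the controls in tumors 2 and 3 and below them in tumor 1 (4.92, 8.40 and 8.64 against 5.48, 5.76 and 5.93), and passed as higher without tumor 1 (2.80).

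Gad2, which makes GABA, was lowest in tumor 2, at 9.95, 7.46 and 10.14 in tumors and 11.77, 11.96 and 11.78 in controls, while Sst, the somatostatin of interneurons, was not (7.83, 8.15 and 8.002). Gli3, a transcription factor of hedgehog signalling, was above every control in tumor 2 and below every control in tumors 1 and 3 (6.23, 10.41 and 6.82 against 8.95, 8.51 and 8.54), and was not called (-0.85 ± 0.98), but passed as lower without tumor 2 (-2.15). These genes were chosen after their values were seen, and no test was run on single tumors.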
